A study of Mus musculus with 9 samples.

Results

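The genes described here release, carry and break down adenosine and related purine nucleosides in the mouse small intestine: Nt5e, Ada, Slc28a2, its close paralog Gm14085, Slc29a1, Pnp, Xdh and Adk. They were found by their gene symbol, 8 of 9 genes named, among 19360 genes of the deposited table. The expression of the ninth, Slc28a1, was not analysed here. The genes were chosen by their role and on their scaled counts in these same libraries, so the differences between groups below are a description and carry no test.

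Small intestine was taken from 9 wild-type BALB/c mice, 3 per group, and its poly(A) RNA was sequenced to ask which genes 3pRNA changes in irradiated gut through type I interferon. The 3pRNA + anti-IFNAR1 + TBI mice received an antibody that blocks the type I interferon receptor 48 h before irradiation and 3pRNA, an RNA with a 5′-triphosphate that the sensor RIG-I binds, 24 h before it. The 3pRNA + TBI mice received 3pRNA alone 24 h before irradiation. The TBI mice were irradiated only. All mice, also those of the TBI group, received 9 Gy of total body irradiation (TBI) and were sampled 12 h later, so no group shows the unirradiated gut. Mice given only the carrier, a control antibody or only anti-IFNAR1 are not part of the design, and what the carrier or the antibody itself does cannot be told apart from the effects of 3pRNA and blockade. Mice of all groups were 6 to 12 weeks old when experiments began, according to the general methods.

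Libraries held between 6487053 and 19946586 reads in genes. Values are scaled counts, that is read counts divided by the size factor of the library, and each log2 change is a difference of group means of log2(scaled count + 1) from 1 limma fit of the 9 libraries and 14199 genes. The genes described had from 82 reads for Slc29a1 in its lowest library to 8995 reads for Xdh in its highest. Slc29a1 was read least, with at most 306 reads in a library. Epithelial genes were abundant in every library: Epcam, which marks all gut epithelium, had scaled counts between 24394 and 35467. TBI replicates 1 and 3 stood apart in the 11 smooth muscle markers, whose summed scaled count was 5957 and 5792 there and between 17433 and 30662 in the other libraries. The values without these libraries are given beside the main comparison. In bulk tissue, fewer cells of a type and less RNA per cell cannot be told apart.

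Cells under stress release ATP, which ectoenzymes strip to AMP outside the cell. Nt5e (CD73) turns this AMP into adenosine, a signal that acts on adenosine receptors and generally dampens inflammation. Nucleoside transporters clear adenosine into cells, where Ada converts it to inosine, Pnp releases the base hypoxanthine from inosine, and Xdh oxidises hypoxanthine to xanthine and urate, while Adk instead returns adenosine to AMP. In mouse small intestine, Nt5e, Slc28a2 and Ada are known as genes of mature enterocytes towards the villus tip.

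Slc28a2 and Gm14085, which RefSeq names Slc28a2b, are neighbours on chromosome 2 and so alike that sequence decides how far their reads can be told apart. Their coding sequences, 1983 bases each, were identical at 1875 bases (94.55%), and the longest identical run was 192 bases. Of all stretches of 50 coding bases in Gm14085, 33.9% also occurred in Slc28a2, and of all stretches of 100 bases, 11.25%. Slc28a1 shared 69.6% of aligned coding bases with Slc28a2 and Slc28a3 shared 60.6%, with no stretch of 50 bases in common. The opening 90 coding bases of both genes, from GENCODE M21, are printed to show what tells their reads apart, with the 7 differing bases in capitals.
Slc28a2: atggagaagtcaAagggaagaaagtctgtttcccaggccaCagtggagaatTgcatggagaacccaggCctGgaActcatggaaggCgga
Gm14085: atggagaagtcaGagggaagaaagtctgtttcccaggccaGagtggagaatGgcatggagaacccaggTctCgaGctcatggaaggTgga

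The promoters of the 4 genes that differed most between groups are printed because these genes varied together over the libraries. Each is the 250 bases before the start site in RefSeq, on the strand of the gene, in build GRCm38.p6, which is not the build of the authors. Capitals mark matches to GAS, the interferon-γ activated site (TTCNNNGAA), to the interferon-stimulated response element (ISRE: GAAA, any 2 bases, GAAA) or to the site of the gut factors CDX1 and CDX2 (CNATAAA). The regions are chr9:88327359-88327608 (+) for Nt5e, chr2:163750240-163750489 (−) for Ada, chr2:122426185-122426434 (+) for Slc28a2 and chr2:122484691-122484940 (+) for Gm14085.
Nt5e: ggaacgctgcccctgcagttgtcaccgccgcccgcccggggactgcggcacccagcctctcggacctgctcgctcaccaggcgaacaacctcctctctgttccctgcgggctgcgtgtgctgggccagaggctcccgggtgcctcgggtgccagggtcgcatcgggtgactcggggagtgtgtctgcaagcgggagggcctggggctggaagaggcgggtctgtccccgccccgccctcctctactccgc
Ada: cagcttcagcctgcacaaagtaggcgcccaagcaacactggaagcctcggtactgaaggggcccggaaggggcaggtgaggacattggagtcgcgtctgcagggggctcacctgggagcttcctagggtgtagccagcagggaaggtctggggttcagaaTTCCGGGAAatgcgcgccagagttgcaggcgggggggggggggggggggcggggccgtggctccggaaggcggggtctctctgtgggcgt
Slc28a2: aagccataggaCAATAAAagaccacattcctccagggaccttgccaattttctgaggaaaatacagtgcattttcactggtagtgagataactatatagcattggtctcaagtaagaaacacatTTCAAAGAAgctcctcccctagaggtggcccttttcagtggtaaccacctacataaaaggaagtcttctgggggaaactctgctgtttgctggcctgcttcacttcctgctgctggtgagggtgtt
Gm14085: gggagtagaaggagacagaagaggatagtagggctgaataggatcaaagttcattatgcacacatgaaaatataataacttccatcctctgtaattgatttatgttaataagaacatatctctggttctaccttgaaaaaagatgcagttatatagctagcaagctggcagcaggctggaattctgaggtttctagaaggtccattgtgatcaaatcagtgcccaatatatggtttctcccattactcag

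The GAS letters stood 90 to 82 bases before the start of Ada, as TTCCGGGAA, and 126 to 118 bases before that of Slc28a2, as TTCAAAGAA. The CDX letters stood 239 to 233 bases before the start of Slc28a2. The ISRE letters matched in no promoter of the 8 genes that had a RefSeq sequence, which here leave out Xdh and include Slc28a1. Searched on both strands of 32851 RefSeq promoters of the same length, the ISRE letters matched 2.98%, the GAS letters 7.02% and the CDX letters 9.81%. The promoter of Nt5e was GC-rich (72% GC) and held 4 GC boxes (GGGCGG, here on the other strand, in 2 overlapping pairs), that of Ada had 67.2% GC, and those of Slc28a2 (45.2%) and Gm14085 (38.4%) lay below the median of all promoters (52.4%). GC boxes matched 32.7% of all promoters and also stood before Ada, Pnp, Adk, Slc29a1 and Slc28a1. Xdh had no promoter sequence here.

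The transcript of Nt5e, an enzyme that makes extracellular adenosine, was low in the mice given 3pRNA without blockade. Nt5e (ENSMUSG00000032420) had scaled counts of 1096, 986 and 1122 in 3pRNA + anti-IFNAR1 + TBI, 366, 637 and 418 in 3pRNA + TBI, and 1289, 2073 and 1245 in TBI. The 3 groups did not overlap: each 3pRNA + TBI library lay under all others, and each library with blockade lay between these and the TBI libraries. The means were 1068 ± 72.1, 474 ± 144 and 1536 ± 466 (SD, n = 3 each) for 3pRNA + anti-IFNAR1 + TBI, 3pRNA + TBI and TBI. The log2 change was -1.70 (standard error 0.22) for 3pRNA + TBI against TBI, 1.21 for blockade against 3pRNA + TBI and -0.48 for blockade against TBI, with the same standard error. TBI replicate 2 was the highest of the 9 libraries, and without it the change of 3pRNA + TBI against TBI was -1.46, the smallest with any 1 library left out.

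Ada (ENSMUSG00000017697), which deaminates adenosine to inosine, had a like order of groups. It had scaled counts of 4781, 4177 and 5932 in 3pRNA + anti-IFNAR1 + TBI, 2088, 2504 and 2566 in 3pRNA + TBI, and 5930.5, 6843 and 5138 in TBI. The 3pRNA + TBI libraries lay apart under the others, whereas libraries with blockade and TBI libraries overlapped. Means were 4963 ± 891, 2386 ± 260.1 and 5971 ± 853 (SD, n = 3 each) in the same order, and the log2 change was -1.32 (standard error 0.14) for 3pRNA + TBI against TBI, 1.05 for blockade against 3pRNA + TBI and -0.27 for blockade against TBI.

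Slc28a2 (ENSMUSG00000027219) encodes CNT2, a sodium-dependent transporter that prefers purine nucleosides. Its scaled counts were 2062, 2318 and 2264 in 3pRNA + anti-IFNAR1 + TBI, 784, 1054 and 982 in 3pRNA + TBI, and 2030.2, 2742 and 2632 in TBI. Here too the 3pRNA + TBI libraries lay apart, and all libraries with blockade fell within the range of the TBI libraries. The log2 change was -1.39 (standard error 0.13) for 3pRNA + TBI against TBI, 1.24 for blockade against 3pRNA + TBI and -0.15 for blockade against TBI.

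Gm14085 (ENSMUSG00000079071) had the same order of groups as Slc28a2. It had scaled counts of 648, 665 and 718 in 3pRNA + anti-IFNAR1 + TBI, 253, 325 and 304 in 3pRNA + TBI, and 583, 835 and 814 in TBI. The log2 changes were -1.33 (standard error 0.14) for 3pRNA + TBI against TBI, 1.21 for blockade against 3pRNA + TBI and -0.12 for blockade against TBI. Of the reads assigned to either gene, Gm14085 took between 22.3% and 24.1% in libraries with blockade, between 23.6% and 24.4% in 3pRNA + TBI and between 22.3% and 23.6% in TBI. Since part of the coding sequence is identical, how far reads of one gene were counted for the other was not tested.

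**Figure D1:**
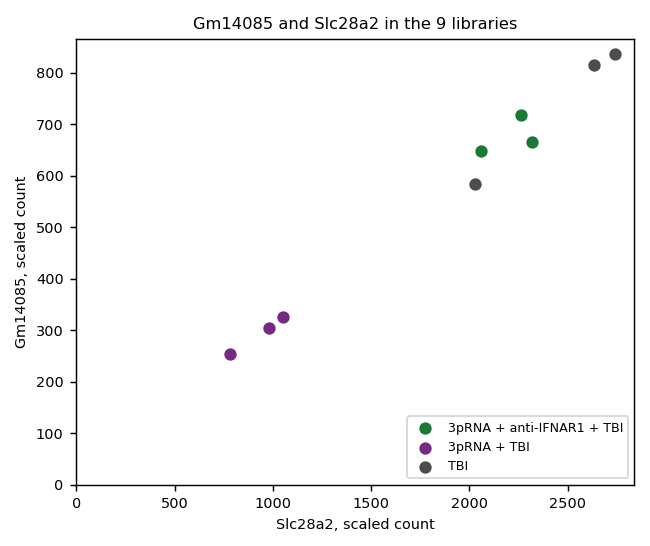
Scaled count of Gm14085 (y axis) against that of Slc28a2 (x axis), 1 point per library, coloured by group. The 3pRNA + TBI libraries sit together at 784 to 1054 on the x axis and 253 to 325 on the y axis, below all other libraries, and the libraries with blockade lie among the TBI libraries.

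Slc29a1 (ENSMUSG00000023942) encodes ENT1, the equilibrative transporter that moves purine and pyrimidine nucleosides down their gradient. Of the 8 genes it was the one with the most positive change in 3pRNA + TBI against TBI. Its scaled counts were 205, 171 and 178 in 3pRNA + anti-IFNAR1 + TBI, 191, 181 and 232 in 3pRNA + TBI, and 156, 139 and 122 in TBI. All libraries of both 3pRNA groups lay above all TBI libraries, and the 3pRNA groups overlapped each other. The log2 change was 0.53 (standard error 0.13) for 3pRNA + TBI against TBI, -0.12 for blockade against 3pRNA + TBI and 0.41 for blockade against TBI.

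Pnp (ENSMUSG00000021871), which splits inosine and guanosine into sugar phosphate and base, was low in both 3pRNA groups. It had scaled counts of 683, 783 and 873 in 3pRNA + anti-IFNAR1 + TBI, 931, 830.1 and 680.3 in 3pRNA + TBI, and 1238, 1088 and 1184 in TBI. Each library of the 3pRNA groups lay under each TBI library, with or without the antibody. The log2 change was -0.53 (standard error 0.12) for 3pRNA + TBI against TBI, -0.06 for blockade against 3pRNA + TBI and -0.59 for blockade against TBI. Reads assigned to Pnp2, whose coding sequence is 97.9% identical, were at most 0.197% of those of both genes in any library, and reads shared between them cannot be placed with certainty.

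Xdh (ENSMUSG00000024066), which makes xanthine and urate, differed most from TBI under blockade. Its scaled counts were 3285, 4229 and 4035 in 3pRNA + anti-IFNAR1 + TBI, 5610.2, 5326 and 4728 in 3pRNA + TBI, and 6373, 5274 and 5283 in TBI. The libraries with blockade lay under all others, and the 3pRNA + TBI and TBI libraries overlapped. The log2 change was -0.11 (standard error 0.12) for 3pRNA + TBI against TBI, -0.44 for blockade against 3pRNA + TBI and -0.55 for blockade against TBI.

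Adk (ENSMUSG00000039197), the kinase that returns adenosine to AMP, had overlapping groups throughout. It had scaled counts of 1793, 1739 and 1465 in 3pRNA + anti-IFNAR1 + TBI, 1753, 2082 and 1275 in 3pRNA + TBI, and 1799.5, 1746 and 1519.7 in TBI. Its log2 changes lay between -0.02 and -0.01 in the 3 comparisons, with a standard error of 0.16.

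**Figure D2:**
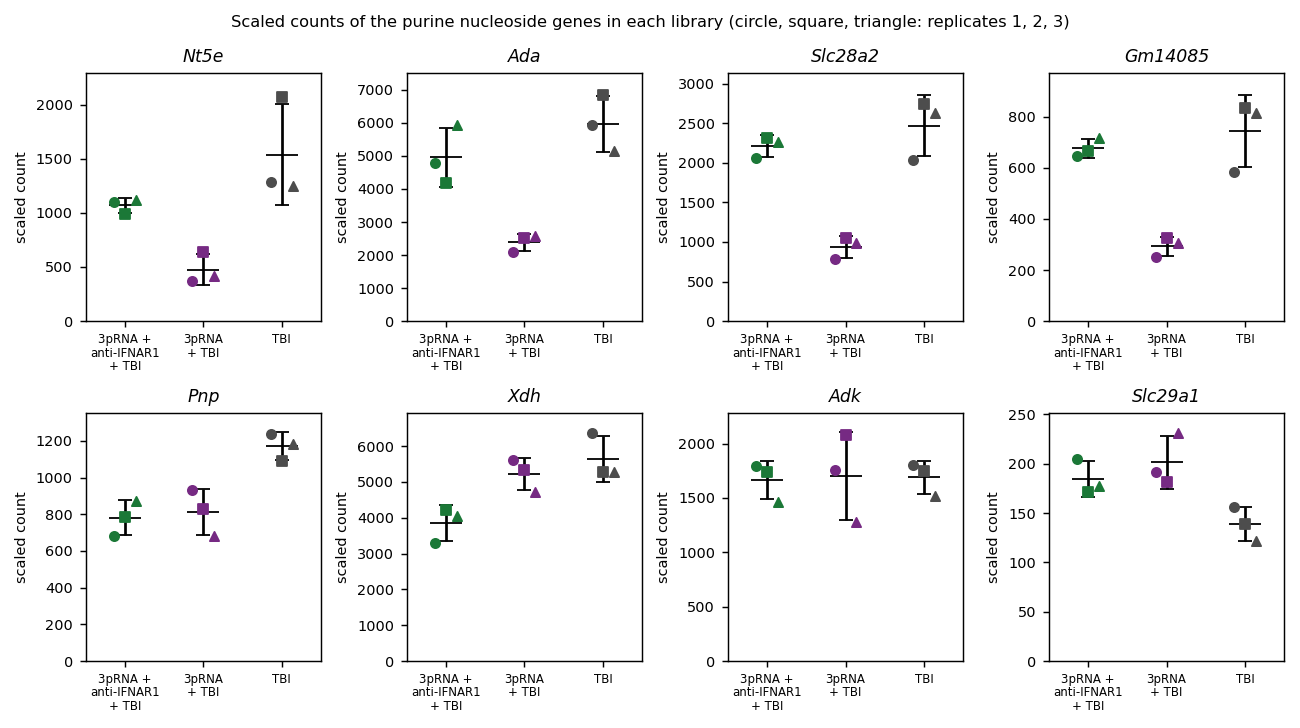
Scaled counts (y axis, from 0) of the 8 genes in each library, by group on the x axis; circles, squares and triangles are replicates 1, 2 and 3, the line is the mean and the bar 1 SD. For Nt5e, Ada, Slc28a2 and Gm14085 the 3pRNA + TBI libraries sit under all other libraries, Pnp is low in both 3pRNA groups (680.3 to 931, against 1088 to 1238 in TBI), Xdh is low under blockade alone, and Adk overlaps in all groups.

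Between 3pRNA + TBI and TBI, the adjusted p of 5 of the 8 genes was under 0.05 with a lower level (Nt5e, Ada, Slc28a2, Gm14085 and Pnp) and that of 1 gene with a higher level (Slc29a1), where 5.59% of all 14199 genes passed, 3.48% higher and 2.11% lower. The genes were chosen on these same libraries, so passing in any of the 3 comparisons follows in part from that choice and is no test. This also holds with libraries left out. Slc28a2 and Gm14085 share coding sequence and are not independent of each other. Groups did not overlap for these same 6 genes, and for 25.2% of all genes (12.2% above, 13% below). The median log2 change was -0.93 over the 8 genes and -0.02 over all genes. Ranked by log2 change, 0.0282% of all genes lay below Nt5e, 0.0916% below Slc28a2, 0.0986% below Gm14085, 0.106% below Ada and 2.82% below Pnp. Nt5e, Ada, Slc28a2 and Gm14085 stayed under the threshold with each library left out in turn and in the 11 other settings tried. Pnp did not pass without TBI replicate 1, TBI replicate 3, 3pRNA + TBI replicate 1 or 3pRNA + TBI replicate 3, and Slc29a1 passed in 1 of 9 fits with a library left out, that without 3pRNA + TBI replicate 2. Both genes passed in 6 of the 11 other settings, not the same ones throughout. Pnp did not pass with equal totals, with equal epithelial markers, with only the 2 groups, without a trend or without both TBI replicates 1 and 3, and Slc29a1 did not pass with no filter, with only the 2 groups, without a trend, in limma-voom or without both of these TBI libraries. Without both TBI libraries that were low in smooth muscle, the log2 change was -2.17 for Nt5e, -1.53 for Ada, -1.55 for Slc28a2, -1.51 for Gm14085 and -0.43 for Pnp, with TBI replicate 2 as the sole TBI library.

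Between 3pRNA + anti-IFNAR1 + TBI and 3pRNA + TBI, 4 of the 8 genes passed with a higher level (Nt5e, Ada, Slc28a2 and Gm14085) and none with a lower one, where 1.42% of all genes passed, 0.19% higher and 1.23% lower. Groups did not overlap for these 4 genes and, in the other direction, for Xdh, and for 15.5% of all genes (8.25% above, 7.25% below). The median log2 change was 0.52 over the 8 genes and 0.0027 over all genes. The 4 genes were at 99.79% to 99.89% of all genes ranked by log2 change. Ada, Slc28a2 and Gm14085 stayed under the threshold with each library left out. Nt5e did not pass without 3pRNA + TBI replicate 1 or 3 or without 3pRNA + anti-IFNAR1 + TBI replicate 1 or 3, where its log2 change lay between 1.05 and 1.19, and it passed in 9 of 10 other settings, all but that without a trend. Xdh passed with a lower level in 1 of 10 other settings, that with equal epithelial markers. This comparison shares its 3pRNA + TBI libraries with the one before, so their values are not independent.

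Between 3pRNA + anti-IFNAR1 + TBI and TBI, none of the 8 genes passed, where 0% of all genes passed in limma (1753 at an unadjusted p under 0.05, and 0 in limma-voom). Groups did not overlap for Nt5e, Pnp and Xdh, lower under blockade, and for Slc29a1, higher under blockade, and for 19.1% of all genes (7.01% above, 12.1% below). Relative to the TBI mean, the mean under blockade was 69.55% for Nt5e, 83.1% for Ada, 89.7% for Slc28a2, 91.0% for Gm14085, 66.6% for Pnp, 68.2% for Xdh, 98.65% for Adk and 132.5% for Slc29a1. Without TBI replicate 2, Pnp and Xdh passed with a lower level, and 359 of all genes passed.

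**Figure D3:**
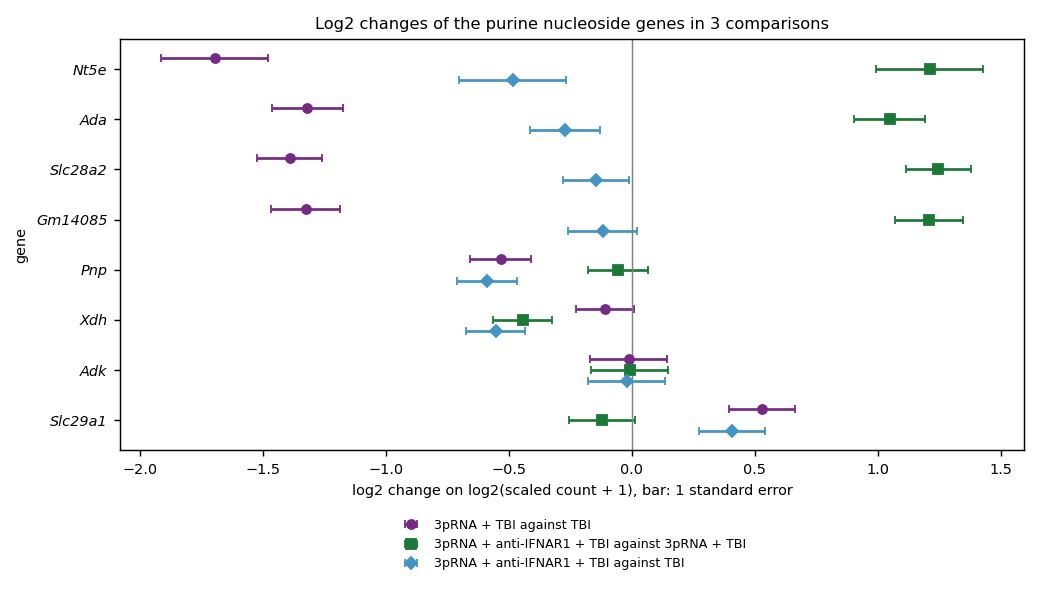
Log2 change (x axis) with 1 standard error of the 8 genes (y axis) for 3pRNA + TBI against TBI (circles), blockade against 3pRNA + TBI (squares) and blockade against TBI (diamonds). Nt5e, Ada, Slc28a2 and Gm14085 have circles between -1.70 and -1.32 and squares between 1.05 and 1.24, while Pnp has its circle and diamond together at -0.53 and -0.59.

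Levels per length put the deaminase far above the other genes. As RPKM, computed here from the reads in genes and the exon length, Ada averaged 220.3 ± 42.4 in 3pRNA + anti-IFNAR1 + TBI, 107 ± 15.4 in 3pRNA + TBI and 245 ± 22.8 in TBI (SD, n = 3 each). Xdh followed with 37.2 ± 4.13, 50.8 ± 2.67 and 50.9 ± 6.99 and Slc28a2 with 46.7 ± 2.02, 19.98 ± 3.15 and 48.4 ± 6.89 in the same groups. Under blockade every library had more Slc28a2 (44.3 to 48.1) than Xdh (32.4 to 39.8), and in 3pRNA + TBI every library had more Xdh (49.2 to 53.8) than Slc28a2 (16.4 to 22.3). In TBI these 2 genes overlapped. Adk had 17.3 ± 1.86, 17.7 ± 3.20 and 16.3 ± 1.27, Nt5e 11.03 ± 0.979, 4.89 ± 1.28 and 14.6 ± 3.59, Gm14085 12.0 ± 0.714, 5.26 ± 0.714 and 12.3 ± 2.19, and Slc29a1 4.09 ± 0.482, 4.52 ± 0.892 and 2.87 ± 0.365 RPKM. In TBI, Nt5e overlapped both Adk and Gm14085, Adk lay above Gm14085 in every library, and Slc29a1 was the lowest. Lengths are those of GENCODE M21, which is not stated to be the gene models of the authors, and no level per length is given for Pnp, whose identifier belongs to an overlapping gene model there.

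The 2 enzymes that compete for adenosine inside the cell had a lower transcript ratio, Ada to Adk, in 3pRNA + TBI alone. Since Adk overlapped in all groups, this ratio largely restates the levels of Ada. Per length, Ada exceeded Adk by a factor of 12.9 ± 3.76 in 3pRNA + anti-IFNAR1 + TBI, 6.26 ± 2.01 in 3pRNA + TBI and 15.0 ± 1.44 in TBI (SD, n = 3 each). The factor was between 5.08 and 8.57 in 3pRNA + TBI, under all libraries of the other groups (10.2 to 17.2 under blockade and 14.04 to 16.7 in TBI).

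Over the 9 libraries, the 4 genes low in 3pRNA + TBI varied together. Pearson's r of log2(scaled count + 1) was 0.955 between Nt5e and Ada, 0.944 between Nt5e and Slc28a2, 0.945 between Ada and Slc28a2 and 0.997 between Slc28a2 and Gm14085. The points share the groups, so r was also taken over deviations from the group means, and was then 0.64, 0.635, 0.316 and 0.955 for the same pairs. Pnp and Xdh had an r of 0.735, and of 0.797 over the deviations. These are descriptions over 9 libraries of 3 groups that share depth and tissue makeup.

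Among genes other than the 8, those most like Nt5e over the libraries were Atxn1 (r of 0.98), Large, Lrrc42, Dcp2 and Eps8 (0.97 each). Those most like Ada were Capn7, Prep, the goblet cell gene Fcgbp (0.98 each), Lactb (0.97) and Elmo1 (0.96). Leaving out the 8 genes themselves, those most like Slc28a2 were Nckap5 (0.99), Pccb, a subunit of propionyl-CoA carboxylase (0.98), the goblet cell gene Spink4 and Fcgbp (0.97 each) and the pseudogene Rps16-ps2 (0.96). An r over 0.9 was reached with Nt5e by 0.972% of all genes tested, with Ada by 0.486% and with Slc28a2 by 0.578%.

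Of 87 other genes of purine metabolism, 74 were abundant enough to be tested. In 3pRNA + TBI against TBI 2 were higher and 2 were lower, where 5.59% of all genes passed. In blockade against 3pRNA + TBI 1 was lower, where 1.42% of all genes passed, and in blockade against TBI none passed, where 0% did. These counts lay near the shares over all genes. The median log2 change over these 74 genes was 0.06, -0.05 and -0.01 in the 3 comparisons, and over all genes -0.02, 0.00 and -0.02.

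Enpp4, a membrane-bound ectonucleotide phosphodiesterase, moved opposite to Nt5e. It had scaled counts of 189, 186 and 188 in 3pRNA + anti-IFNAR1 + TBI, 334, 310.2 and 368 in 3pRNA + TBI, and 207, 165 and 194 in TBI. It rose by 0.84 on the log2 scale in 3pRNA + TBI against TBI (adjusted p = 0.00412 in limma, standard error 0.11) and fell under blockade against 3pRNA + TBI by 0.84 (adjusted p = 0.00242 in limma), and passed with each library left out.

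Entpd3, an ectoenzyme that strips phosphates from ATP and ADP, had scaled counts of 11.8, 14.6 and 5.18 in 3pRNA + anti-IFNAR1 + TBI, 16.9, 16.0 and 23.0 in 3pRNA + TBI, and 5.09, 5.09 and 4.64 in TBI. It rose in 3pRNA + TBI against TBI (log2 change 1.71, standard error 0.42, adjusted p = 0.0435 in limma) at few reads, and passed in 2 of 9 fits with a library left out, those without blockade replicate 2 or 3. Acpp, an acid phosphatase whose transmembrane form can hydrolyse AMP, fell in 3pRNA + TBI against TBI by 0.68 on the log2 scale (adjusted p = 0.021 in limma), with means of 256 ± 12.3 in 3pRNA + anti-IFNAR1 + TBI, 208 ± 26.99 in 3pRNA + TBI and 334 ± 52.5 in TBI (SD, n = 3 each). It did not pass without TBI replicate 3, 3pRNA + TBI replicate 1 or 3pRNA + TBI replicate 3. Entpd1 (CD39), the main ectoenzyme of leukocytes and endothelium for ATP, had a log2 change of 0.42 (adjusted p = 0.317 in limma) and was not called in any comparison.

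Among receptors of adenosine and nucleotides, none of 14 genes tested passed in any comparison. In 3pRNA + TBI against TBI their log2 changes lay between -0.28 and 1.56, the highest that of the adenosine receptor gene Adora1 (adjusted p = 0.0595 in limma). Groups did not overlap for 2 of the 14, Adora1 among them, both higher, where 12.2% of all genes did so. Adora1 had a log2 change of 1.09 in blockade against TBI (adjusted p = 0.341 in limma). Adora2a had a log2 change of -0.22 in 3pRNA + TBI against TBI (adjusted p = 0.759 in limma). Adora2b, the low-affinity adenosine receptor, was near the floor of detection, with mean scaled counts of 3.10 in 3pRNA + anti-IFNAR1 + TBI, 3.11 in 3pRNA + TBI and 4.03 in TBI, and was not tested. None of 9 other transporters of nucleosides, nucleobases and urate passed, and Slc28a3 (CNT3), the broad concentrative transporter, had means of 218 ± 22.3 in 3pRNA + anti-IFNAR1 + TBI, 232 ± 33.9 in 3pRNA + TBI and 251 ± 23.7 in TBI (SD, n = 3 each).

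Of 25 other genes of salvage and breakdown 1 passed. Gda, the guanine deaminase that feeds xanthine to Xdh, fell in 3pRNA + TBI against TBI by 0.48 on the log2 scale (adjusted p = 0.0388 in limma), with means of 12711 ± 1139 in 3pRNA + anti-IFNAR1 + TBI, 11429 ± 1280.5 in 3pRNA + TBI and 15959.5 ± 1194 in TBI (SD, n = 3 each). It passed in 1 of 9 fits with a library left out, that without 3pRNA + TBI replicate 2. Hprt, which salvages hypoxanthine and guanine, had a log2 change of -0.09, Aprt, which salvages adenine, 0.07, and Mtap, which frees adenine from methylthioadenosine, 0.00 in this comparison (adjusted p = 0.688, 0.687 and 0.988 in limma).

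None of 13 genes of purine synthesis passed in any comparison, and their log2 changes in 3pRNA + TBI against TBI lay between -0.21 and 0.17. Of 18 genes of pyrimidine nucleosides and synthesis, Dpyd alone passed, in 3pRNA + TBI against TBI. Dpyd, which starts the breakdown of uracil and thymine, had means of 2163 ± 162 in 3pRNA + anti-IFNAR1 + TBI, 1539 ± 251 in 3pRNA + TBI and 2537 ± 279 in TBI (SD, n = 3 each), a log2 change of -0.73 (adjusted p = 0.013 in limma), and did not pass without 3pRNA + TBI replicate 1.

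**Figure D4:**
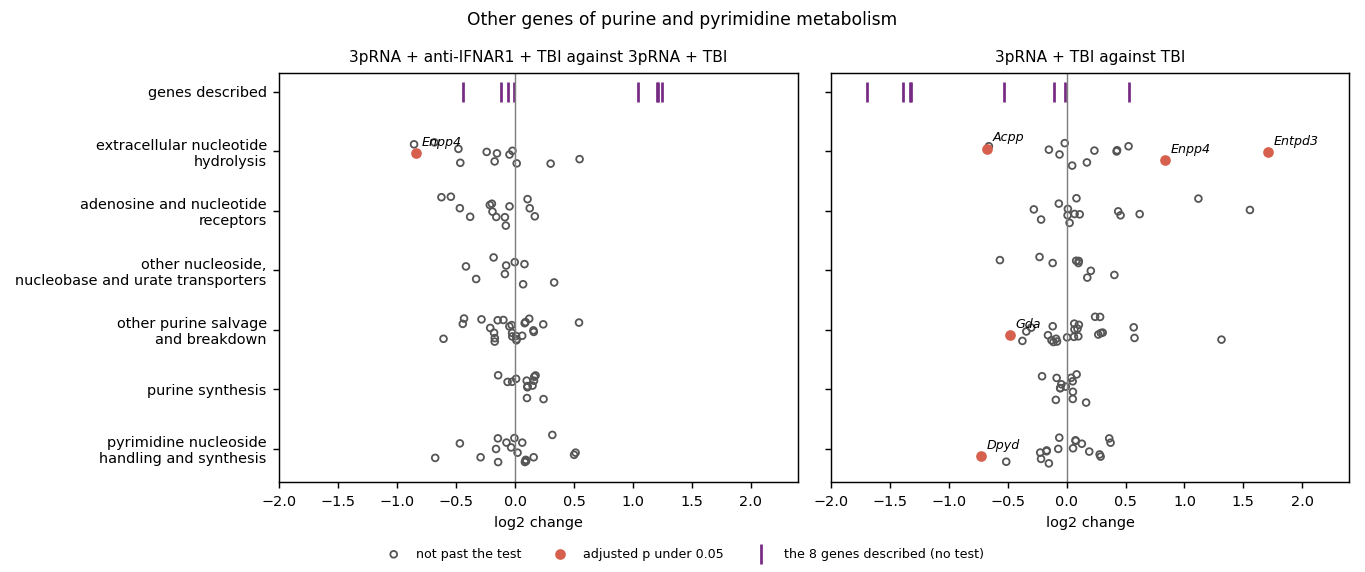
Log2 change (x axis) of the genes of 6 lists of purine and pyrimidine metabolism (y axis), 1 point per gene tested, for blockade against 3pRNA + TBI (left) and 3pRNA + TBI against TBI (right); filled points passed at an adjusted p under 0.05 in limma and are named, and vertical ticks are the 8 genes described. Enpp4 is at -0.84 on the left and 0.84 on the right, and the ticks of Nt5e, Ada, Slc28a2 and Gm14085 lie beyond all points of the lists on their side.

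Marker lists of several cell types differed between the same groups. Of 13 genes of all gut epithelium none passed in any comparison. Their median log2 change was -0.20 in 3pRNA + TBI against TBI and 0.05 under blockade against 3pRNA + TBI, and their summed scaled count was between 196210 and 210650 in 3pRNA + anti-IFNAR1 + TBI, between 176500 and 209890 in 3pRNA + TBI and between 215170 and 240110 in TBI. Scaling the libraries to equal epithelial markers gave log2 changes of -1.49 for Nt5e, -1.11 for Ada, -1.19 for Slc28a2 and -1.12 for Gm14085 in 3pRNA + TBI against TBI, where this scaling moved the median of all genes up by 0.20 on the log2 scale. Of 7 genes of the villus tip none passed, and their median log2 change was -0.26 in 3pRNA + TBI against TBI and 0.13 under blockade against 3pRNA + TBI, with summed scaled counts between 48572 and 50589 in 3pRNA + anti-IFNAR1 + TBI, between 41483 and 46423 in 3pRNA + TBI and between 50376 and 66494 in TBI. The villus tip sum was lowest in the 3pRNA + TBI libraries. Krt20, a keratin of mature villus cells, had a log2 change of -0.30 in 3pRNA + TBI against TBI (adjusted p = 0.189 in limma). Of 14 villus enterocyte genes 12 were tested and none passed. In 3pRNA + TBI against TBI their median log2 change was -0.14, from -0.99 (Apoa4, adjusted p = 0.0534 in limma) to 0.33. Groups did not overlap for 4 of them, all lower, where 13% of all genes did so. Summed scaled counts of the list were 482490 to 538280 under blockade, 375960 to 576600 in 3pRNA + TBI and 522120 to 679210 in TBI.

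Of 10 genes of T cells and intraepithelial lymphocytes 7 fell in 3pRNA + TBI against TBI, where 2.11% of all genes passed with a lower level. The median log2 change over the list was -0.93. Under blockade against 3pRNA + TBI none passed, and the median was 0.60. Their summed scaled count was between 1293 and 1605 in 3pRNA + anti-IFNAR1 + TBI, between 773 and 1005 in 3pRNA + TBI and between 1521 and 2038 in TBI, so it was lowest in the group in which Nt5e and Ada were lowest. Gzma, a granzyme of these cells, fell by 1.09 on the log2 scale (adjusted p = 0.00979 in limma), and no gene of the list was at 0 in any library. Lymphocytes also express Nt5e and Ada, and the part of these cells in the levels of both genes was not tested.

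Of 11 markers of smooth muscle 5 rose in 3pRNA + TBI against TBI, where 3.48% of all genes passed with a higher level. Their median log2 change was 1.94. Under blockade against 3pRNA + TBI none of these markers passed, and the median was -0.10. Their summed scaled counts were between 17433 and 29061 in 3pRNA + anti-IFNAR1 + TBI, between 23528 and 30662 in 3pRNA + TBI and between 5792 and 20110 in TBI. Of 8 adipocyte markers 7 rose in 3pRNA + TBI against TBI, with a median log2 change of 4.47 over the list. Their summed scaled counts were between 553 and 2489 in 3pRNA + anti-IFNAR1 + TBI, between 1273 and 2665 in 3pRNA + TBI and between 429 and 742 in TBI. Adipoq, Plin1, Cfd and Lep were at 0 in 4 libraries each. The part of muscle and fat in the differences was not tested. TBI replicate 2, whose smooth muscle markers were nearest to those of the other groups, had the highest Nt5e, Ada, Slc28a2 and Gm14085 of all 9 libraries. This library also had the highest summed markers of all epithelium (240110), villus enterocytes (679210), villus tip (66494), goblet cells (245050) and T cells (2038). The part of these cells in its high values was not tested.

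Summed markers of goblet and Paneth cells were lowest in 3pRNA + TBI, as Nt5e and Ada were. For 6 goblet cell genes, none of which passed, the sum was between 220420 and 227830 in 3pRNA + anti-IFNAR1 + TBI, between 172630 and 190070 in 3pRNA + TBI and between 222430 and 245050 in TBI, and the median log2 change in 3pRNA + TBI against TBI was -0.20. For 6 Paneth cell genes, of which Lyz1 (lysozyme) fell in 3pRNA + TBI against TBI, the sum was between 49921 and 62664 in 3pRNA + anti-IFNAR1 + TBI, between 39128 and 43654 in 3pRNA + TBI and between 54606 and 57628 in TBI, and the median was -0.32. Of 6 genes of the proximal small intestine 2 were abundant enough to be tested. In 3pRNA + TBI against TBI Slc40a1 (the iron exporter ferroportin) fell by 0.96 on the log2 scale, and Cybrd1 had a change of 0.27 (adjusted p = 0.577 in limma). The sum was between 623 and 896 in 3pRNA + anti-IFNAR1 + TBI, between 467 and 548 in 3pRNA + TBI and between 781 and 1031 in TBI. The mean of log2(scaled count + 1) over the list overlapped in all groups, with 3.65 to 4.12, 3.81 to 4.22 and 3.87 to 4.24 in the same order. Genes of the ileum did not pass in any comparison. Of 9 crypt genes Smoc2 alone passed in 3pRNA + TBI against TBI, with a log2 change of 0.66 (adjusted p = 0.0498 in limma). The median of the crypt list there was -0.15, from -0.84 to 0.66. Of 6 villus base genes tested Lypd8 alone passed under blockade against 3pRNA + TBI, with a log2 change of -1.11, where the median of the list was -0.39. The part of these cells and of the sampled stretch of gut in the levels of the 8 genes was not tested.

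**Figure D5:**
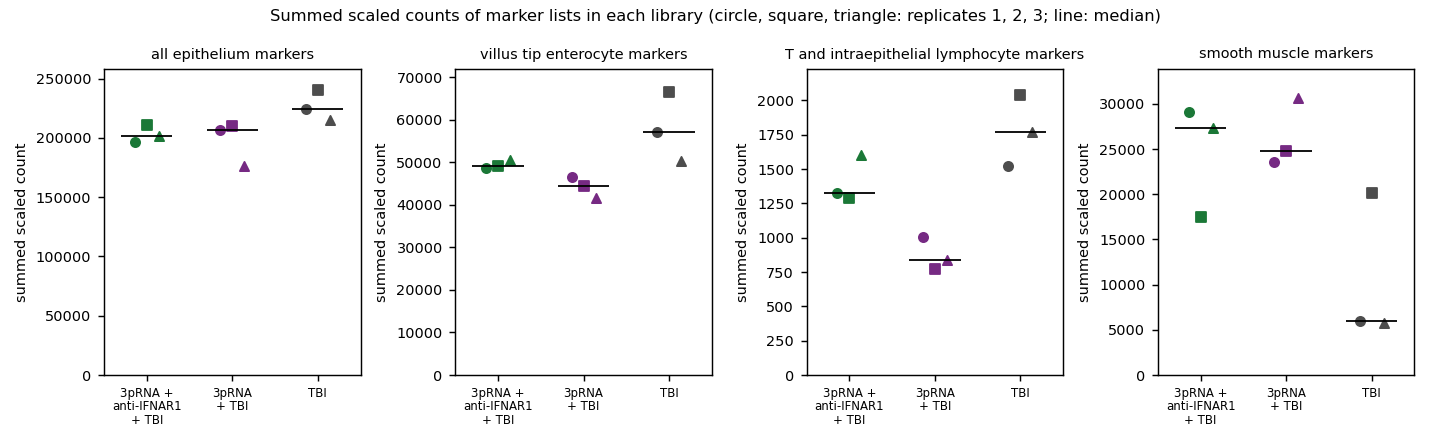
Summed scaled count (y axis, from 0) of 4 marker lists in each library, by group on the x axis; circles, squares and triangles are replicates 1, 2 and 3 and lines are medians. The T cell list is lowest in 3pRNA + TBI (773 to 1005), the epithelial and villus tip lists differ less, and TBI replicates 1 and 3 are low in smooth muscle markers.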

How the data were processed

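Poly(A) RNA was sequenced on a HiSeq2500, and the authors used STAR (2 passes) for alignment, HTSeq for counting and DESeq for scaling. Their processing notes name mm9, while gene models and tool versions were not given. Each deposited signal value is a read count over the library's size factor, to which the authors had added 1. The supplement gives 3 biological replicates per group. The library kit does not mark strand, so reads of overlapping antisense genes cannot be told apart. Deposited tables of the authors' own comparisons (adjusted p, log2 ratios, group means) were not used.

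After subtracting 1, 100% of values were whole multiples of 1 read (tolerance 0.02). Libraries were matched to groups by their labels. Genes averaging 10 or more scaled counts (14199) were fitted as log2(scaled count + 1) in limma 3.58.1 (R 4.3.3) with a variance trend, 9 libraries in 1 fit, two-sided, Benjamini-Hochberg over all genes, threshold 0.05. On this scale, changes of low genes are understated. The fit was also tried on simulated counts, with the same noise setting for every gene and no differences in tissue makeup. That trial cannot show how the fit does where tissue makeup differs between libraries. The edgeR and TMM alternatives planned on recovered reads were not run. Alternatives were other pseudocounts, filters and scalings, fits of 2 groups, a replicate block, no trend and each library left out. Limma-voom on the recovered reads was added after seeing the data.

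The genes and lists were chosen with earlier results of these data known. Named are the 8 genes; list genes called (up to 8 per list and comparison) and Hprt, Aprt, Mtap, Adora2b, Adora2a, Entpd1 and Slc28a3; up to 3 abundant genes per marker list; and the 5 genes most like Nt5e, Ada and Slc28a2. Lyz1, Slc40a1, Cybrd1, Smoc2, Lypd8, Gzma, Apoa4, Adora1 and the adipocyte genes at 0 were named after their values were seen. Coding sequences and lengths came from GENCODE M21, promoters from RefSeq (GRCm38.p6), and sequences were aligned with Biopython 1.88. No coordinates of the authors' build are given.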

Additional observations from a re-analysis of the deposited data

How the results depend on the processing

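Over all alternatives, 472 values of the 8 genes were recomputed, of which 465 moved by less than the spread between replicates, 7 moved by more and 0 changed the sign of a change that had passed. The 7 were Nt5e at -2.17 in 3pRNA + TBI against TBI and -0.96 in blockade against TBI without both TBI replicates 1 and 3, and, with libraries scaled to equal epithelial markers in 3pRNA + TBI against TBI, Slc28a2 (-1.19), Gm14085 (-1.12), Slc29a1 (0.73), Pnp (-0.33) and Xdh (0.10). Equal epithelial markers moved the median log2 change of all genes by 0.20 in 3pRNA + TBI against TBI and by 0.15 in blockade against TBI, and equal totals by 0.11 and 0.10. With these scalings Xdh in 3pRNA + TBI against TBI and Adk against TBI changed sign, as did Slc28a2 and Gm14085 in blockade against TBI with equal epithelial markers. Adk, and Pnp in blockade against 3pRNA + TBI, also changed sign with single libraries left out.

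For 3pRNA + TBI against TBI, 794 genes passed (494 higher, 300 lower). The count was 1621 with equal epithelial markers (1525 higher, 96 lower), 978 with equal totals (803 higher, 175 lower), 454 with only the 2 groups, 209 without a trend and 101 without both TBI replicates 1 and 3. With 1 library left out it lay between 139 and 918, and was 183 without TBI replicate 1, 219 without TBI replicate 3, 139 without 3pRNA + TBI replicate 1 and 174 without 3pRNA + TBI replicate 3. Of the other purine genes, 4 passed, against 8 with equal totals (4 higher, 4 lower), 9 with equal epithelial markers (9 higher, 0 lower), 2 without a trend and 2 without both TBI libraries, and between 1 and 5 with 1 library left out (1 without 3pRNA + TBI replicate 1 or 3, 2 without TBI replicate 1 or 3 or blockade replicate 1). The cause was not tested.

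For blockade against 3pRNA + TBI, 201 genes passed, 103 without a trend and between 91 and 222 with 1 library left out (91 without 3pRNA + TBI replicate 1, 107 without blockade replicate 1, 129 without blockade replicate 3). Of the other purine genes, 1 passed, 2 with only the 2 groups, and between 1 and 2 with 1 library left out (2 without TBI replicate 2, 3pRNA + TBI replicate 2 or blockade replicate 3). For blockade against TBI, 0 genes passed, and between 0 and 359 with 1 library left out (359 without TBI replicate 2, 9 without blockade replicate 2), and of the purine genes 0 in every fit. Counting noise limits Entpd3 and Adora2b.

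The labels do not say that a replicate number marks a shared batch, and the numbers were not taken as pairs, since not every same-numbered pair of libraries had deviations with an r over 0.1. The r was between -0.193 and 0.07 for replicate 1, between 0.07 and 0.345 for replicate 2 and between 0.182 and 0.34 for replicate 3, against between -0.42 and 0.23 for other pairs. Of 9 libraries, 6 were closest to one of their own number, a hint from the data, not the design, of something shared by number. Deviations within a group of 3 cancel out, so the agreement of replicates 2 and that of replicates 3 are not independent and can be the same difference. With the replicate number as a block, 1223 genes passed in 3pRNA + TBI against TBI (642 higher, 581 lower), of them 7 other purine genes. Under this block 4 of the purine genes passed in blockade against 3pRNA + TBI. That count is given without the share over all genes under the block and is not read as a result about purine genes. In blockade against TBI 1 gene in all passed under the block. The edgeR and TMM alternatives were not run, and limma-voom on the recovered reads was run in their place.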
